A study of Homo sapiens with 4 samples.

Results

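The genes of the mTOR complexes and their direct regulators were examined in MV4-11 cells upon CEBPG knockdown. The 10 members were MTOR, RPTOR, RICTOR, MLST8, AKT1S1, DEPTOR, TSC1, TSC2, RHEB and RPS6KB1, out of 16490 genes in the expression table. They were taken by symbol for their place in the pathway, and the values of each gene's RefSeq transcripts were summed in each library. MV4-11 is a human acute myeloid leukemia (AML) cell line of myelomonocytic type with an MLL gene fusion and an activated FLT3 receptor. Its cells had been infected with lentivirus carrying a short hairpin RNA in the pLKO.1-puro vector and selected with puromycin. There were 2 libraries of control cells (sh-NC, labelled as CEBPG presence) and 2 libraries of cells with the third CEBPG hairpin (sh-CEBPG#3, labelled as CEBPG knockdown). All 4 libraries thus share the vector and the selection, and the knockdown rests on a single hairpin. The sources used here do not give the time after infection, nor whether replicates stem from separate infections, so the spread between them may be technical.

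mTOR is a serine/threonine kinase that works in a pair of complexes. In mTORC1 it is joined by RPTOR (raptor), which brings substrates such as S6 kinase and the 4E-BP proteins to the kinase, and by the inhibitory subunit AKT1S1 (PRAS40). In mTORC2 the defining subunit is RICTOR, and the complex phosphorylates AKT and SGK kinases. MLST8 and the inhibitor DEPTOR belong to both. The small GTPase RHEB switches mTORC1 on at the lysosome, and the TSC1-TSC2 complex switches RHEB off. Activity of the pathway is set largely by phosphorylation and by location in the cell, which RNA levels do not measure. Signals from FLT3 through PI3K and AKT feed into it in AML cells.

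The values are FPKM, fragment counts scaled by the authors for transcript length and for the number of mapped fragments, so levels can be set side by side between genes. The FPKM totals ranged from 364353 to 389766 per library, and depth is unknown because the values carry no read counts. Across the 12142 genes tested, Pearson's r of log2(FPKM + 1) was 0.993 and 0.994 within groups and 0.962 to 0.964 between them. CEBPG, the targeted gene, stood at 32.0 ± 2.23 FPKM in sh-NC cells and 18.2 ± 1.53 FPKM upon knockdown (SD, n = 2 each). Of 12 myelomonocytic markers, 11 were tested, of which 7 were higher and 2 lower at an adjusted p under 0.05 in limma. Among all genes tested, 18.5% were higher and 23.8% lower. HOXA9 and MEIS1 were the lower markers, at 77.6% and 48.0% of the control level, while FLT3 and ITGAM did not pass. The 12 markers summed to 979 to 1069 FPKM in sh-NC and 3498 to 3678 FPKM in sh-CEBPG#3 cells, a rise mostly through LYZ (lysozyme). CD14 was at 0.187 and 0 FPKM in sh-NC cells and 1.09 and 0.697 FPKM in sh-CEBPG#3 cells. The B lymphoid list summed to 2.35 to 3.24 FPKM over all libraries, with PAX5 lower among the 2 genes tested, and the epithelial list to 12.1 to 12.9 FPKM in sh-NC and 14.8 to 16.0 FPKM in sh-CEBPG#3 cells, with KRT8 higher among the 2 genes tested. COL1A1 of the fibroblast list was at most 0.0781 FPKM, and the remaining fibroblast genes and all erythroid and T lymphoid markers were not analysed here. In bulk RNA, a change in the share of cells of one kind cannot be told apart from a change in RNA per cell, and the part of the shift in myeloid markers in the results below was not tested.

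Of the 10 mTOR genes, RHEB was higher and RPTOR and DEPTOR were lower upon CEBPG knockdown, while the other 7 did not pass an adjusted p of 0.05 in limma. Among all genes tested 42.2% passed, 18.5% as higher and 23.8% as lower, so the 3 of 10 called here are no more than the background of this comparison. All 10 members passed the filter on low values (0.5 FPKM or more as the mean of all 4 libraries), DEPTOR only through its level in sh-NC cells, so that its call is that of a gene admitted by the group where it is high. The study called genes with DESeq2 at a P under 0.05 and a change of more than 2-fold, without saying whether P was adjusted. It was read here as an unadjusted p in limma, with the fold taken on FPKM + 1. This threshold was passed by 0 members and by 3.41% of all genes. The share cannot be set beside the study's own count, which came from another test. DEPTOR passed the threshold with a pseudocount of 0.1 or 0.01. At an unadjusted p under 0.05 in limma the members were again 3, against 50.6% of all genes. The groups did not overlap for 7 of the members, against 71.7% of all genes tested. The median log2 fold change was 0.037 over the members and -0.038 over all genes.

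RPTOR, the mTORC1 subunit that recruits substrates, was measured by 1 RefSeq transcript (NM_020761). The gene spans bases 80544838 to 80966368 of chromosome 17 on the plus strand (GRCh38). Its level was 8.22 and 9.39 FPKM in sh-NC cells and 6.03 and 5.60 FPKM in sh-CEBPG#3 cells. Both knockdown libraries were thus below both control libraries. The means were 8.81 ± 0.825 FPKM and 5.82 ± 0.306 FPKM (SD, n = 2 each), which is 66.1% of the control level. On the log2(FPKM + 1) scale the fold change was -0.52 (standard error 0.097, Benjamini-Hochberg adjusted p = 0.00189 by limma), with a 95% interval from -0.74 to -0.31. Of all genes tested, 9.09% had a lower log2 fold change. In the fit over single transcripts, where the same values were tested among all transcripts, RPTOR did not pass (adjusted p = 0.0700 in limma).

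RICTOR, the scaffold of mTORC2, did not follow RPTOR. It had 6.58 and 5.97 FPKM in sh-NC cells and 7.19 and 6.47 FPKM in sh-CEBPG#3 cells, and the groups overlapped. The log2 fold change was 0.11 with an interval from -0.11 to 0.32 (adjusted p = 0.410 in limma). MTOR, the kinase itself, had 7.18 and 7.65 FPKM in sh-NC and 7.64 and 7.49 FPKM in sh-CEBPG#3 cells. Its log2 fold change was 0.026, with an interval from -0.17 to 0.22 (adjusted p = 0.835 in limma), so a change of the kinase mRNA as large as that of RPTOR lies outside the interval.

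The ratio of RPTOR to RICTOR was computed within each library, as a measure of the balance between the defining subunits of mTORC1 and mTORC2. It was 1.25 and 1.57 in sh-NC cells and 0.840 and 0.867 in sh-CEBPG#3 cells. In FPKM, RPTOR was therefore the higher of this pair in both control libraries and RICTOR the higher in both knockdown libraries. The mean ratio in sh-CEBPG#3 cells was 60.4% of that in sh-NC cells. The ratio of RPTOR to MTOR went from 1.15 and 1.23 to 0.789 and 0.748, whereas that of RICTOR to MTOR was 0.916 and 0.781 in sh-NC and 0.940 and 0.864 in sh-CEBPG#3 cells and overlapped. These ratios are given as a description and were not tested.

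MLST8, the shared subunit that sits on the kinase domain, was the most abundant member. It had 32.4 and 36.1 FPKM in sh-NC cells and 39.3 and 38.2 FPKM in sh-CEBPG#3 cells, which do not overlap. The log2 fold change was 0.18 (standard error 0.080, interval from -0.0012 to 0.35), and the adjusted p = 0.101 in limma missed the threshold. It passed in limma after quantile normalization (adjusted p = 0.0228) and after scaling to equal totals (adjusted p = 0.0304). Its log2 fold change was 0.099 without sh-NC replicate 1 and 0.25 without sh-NC replicate 2.

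The inhibitory subunits differed from each other. AKT1S1, the mTORC1 inhibitor that AKT phosphorylates, had 8.41 and 8.58 FPKM in sh-NC cells and 8.31 and 7.70 FPKM in sh-CEBPG#3 cells. Its knockdown libraries lay slightly below the control libraries, and the log2 fold change of -0.078 had an interval from -0.27 to 0.12 (adjusted p = 0.507 in limma). Relative to RPTOR, its partner in mTORC1, AKT1S1 went from 1.02 and 0.914 in sh-NC to 1.38 and 1.37 in sh-CEBPG#3 cells, with RPTOR as the member of the pair that fell.

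DEPTOR, which binds and inhibits the kinase in both complexes, was the least abundant member. It had 1.03 and 1.38 FPKM in sh-NC cells and 0.223 and 0.292 FPKM in sh-CEBPG#3 cells. The means were 1.21 ± 0.241 and 0.258 ± 0.0487 FPKM (SD, n = 2 each), which is 21.4% of the control level. Both knockdown libraries were far below both control libraries, and the mean over the 4 libraries was 0.731 FPKM. The log2 fold change was -0.81 (standard error 0.14, interval from -1.13 to -0.48, adjusted p = 0.00158 in limma). A pseudocount of 1 is as large as the level itself here, and with a pseudocount of 0.1 or 0.01 the log2 fold change was -1.86 or -2.18. DEPTOR passed the filter only through its level in sh-NC cells, and with a minimum mean of 1 FPKM it was not tested.

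RHEB, the GTPase that activates mTORC1, was measured by 1 RefSeq transcript (NM_005614). The gene spans bases 151466012 to 151519895 of chromosome 7 on the minus strand (GRCh38). Its level was 12.9 and 13.2 FPKM in sh-NC cells and 18.9 and 18.2 FPKM in sh-CEBPG#3 cells. Replicates lay close together and the groups were well apart. The means were 13.1 ± 0.235 and 18.6 ± 0.481 FPKM (SD, n = 2 each), which is 142% of the control level. The log2 fold change was 0.48 (standard error 0.079, interval from 0.30 to 0.65, adjusted p = 0.000976 in limma), and 90.8% of all genes tested had a lower one.

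The brake on RHEB did not pass the test. TSC2, the subunit that makes RHEB hydrolyse its GTP, had 6.57 and 7.61 FPKM in sh-NC cells and 8.36 and 8.29 FPKM in sh-CEBPG#3 cells. Both knockdown libraries were above both control libraries, by a log2 fold change of 0.21 with an interval from -0.0048 to 0.42 (adjusted p = 0.106 in limma). It passed after quantile normalization (adjusted p = 0.0308 in limma). Its log2 fold change was 0.11 without sh-NC replicate 1 and 0.30 without sh-NC replicate 2. TSC1, which stabilizes TSC2, had 3.11 and 3.36 FPKM in sh-NC and 3.56 and 3.1999 FPKM in sh-CEBPG#3 cells, which overlapped (log2 fold change 0.047, interval from -0.19 to 0.28, adjusted p = 0.751 in limma). The ratio of RHEB to TSC2 was 1.97 and 1.74 in sh-NC cells and 2.26 and 2.20 in sh-CEBPG#3 cells.

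RPS6KB1 encodes S6 kinase 1, a substrate that mTORC1 reaches through RPTOR. It had 7.01 and 6.92 FPKM in sh-NC cells and 6.78 and 6.29 FPKM in sh-CEBPG#3 cells. The knockdown libraries were a little lower without overlap, and the log2 fold change of -0.082 had an interval from -0.28 to 0.12 (adjusted p = 0.497 in limma). Over the 7 members that did not pass, the intervals reached from -0.28 at the lowest to 0.42 at the highest, so none of them reaches a 2-fold change on the log2(FPKM + 1) scale.

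By level, the order of the members in sh-NC cells was MLST8, RHEB, RPTOR, AKT1S1, MTOR, TSC2, RPS6KB1, RICTOR, TSC1 and DEPTOR. RPTOR and AKT1S1 overlapped in their ranges over the 2 libraries, as did MTOR and TSC2 and then TSC2 and RPS6KB1. In sh-CEBPG#3 cells RPTOR moved from rank 3 to rank 8, between RPS6KB1 and TSC1, and its range overlapped neither neighbour. TSC2 moved from rank 6 to rank 3 and overlapped AKT1S1, and RICTOR moved from rank 8 to rank 6 and overlapped RPS6KB1. MLST8 and RHEB at the top and TSC1 and DEPTOR at the bottom kept their places.

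Promoter windows (RefSeq, GRCh38.p14, 250 bases before to 50 bases after an annotated start) were listed for 7 of the 10 members, in 8 windows. MLST8, AKT1S1 and DEPTOR had no entry. CEBPG is a bZIP factor that pairs with other C/EBP proteins and with ATF4, so the windows were searched on both strands for a C/EBP core, TTGCNNAA, and for a composite C/EBP-ATF element, TGATGNAA. The C/EBP core was in 0 of the 8 windows, against 10.5% of the 35116 windows of all genes. The composite element was in 1 window, that of TSC2, against 3.62% of all windows. It overlaps there with CACGTG, the E-box core, which 7.26% of all windows hold. The CCAAT box, found in 34.6% of all windows, was in 3 member windows (MTOR, RICTOR and RHEB). The 130 bases before the start are shown for RHEB, with its CCAAT boxes in capitals, and for RPTOR, which has no match to these 4 motifs in its window, since these are the called members with an entry. A stretch of 40 bases of TSC2 is shown for its composite element, in capitals.
RHEB, chr7:151519896-151520025, minus strand: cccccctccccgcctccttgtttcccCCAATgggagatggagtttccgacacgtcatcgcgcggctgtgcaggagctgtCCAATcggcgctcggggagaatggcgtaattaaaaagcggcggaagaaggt
RPTOR, chr17:80544708-80544837, plus strand: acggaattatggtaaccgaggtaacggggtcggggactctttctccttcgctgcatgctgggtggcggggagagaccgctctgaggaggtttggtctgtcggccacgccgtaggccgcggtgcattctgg
TSC2, chr16:2047855-2047894, plus strand: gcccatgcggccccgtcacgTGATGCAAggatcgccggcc

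The CCAAT boxes of RHEB begin 104 and 51 bases before the start, and the composite element of TSC2 begins 110 bases before it. A match describes the letters only, and binding at these windows was not measured in these libraries. The gene with the composite element, TSC2, did not pass the test, and RHEB and RPTOR, which did, held neither C/EBP pattern in their windows. DEPTOR, the other called member, had no window, and whether the patterns bear on the changes was not tested.

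The members are listed by 25 RefSeq transcripts, 1 each for MTOR, RPTOR and RHEB and 2 to 5 for the other 7. When each transcript was tested by itself over the 18624 that passed the filter, 8.24% of all passed an adjusted p of 0.05 in limma. Of the 19 member transcripts tested, 1 passed, that of RHEB (adjusted p = 0.0402), while those of RPTOR and DEPTOR (NM_022783, adjusted p = 0.0793) did not. MTOR, RPTOR and RHEB have the same values in both fits, and the spread that limma assumed was not the same.

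DEPTOR was carried in sh-NC cells by NM_022783, with 1.01 and 1.31 FPKM, which was 0.0453 and 0.235 FPKM in sh-CEBPG#3 cells. Its other transcript, NM_001283012, stayed under 0.18 FPKM in every library. TSC2 came almost wholly from NM_001077183, at 99.2% to 99.9% of the gene in each library. NM_022783 of DEPTOR was 97.5% and 95.5% of the gene in sh-NC cells and 20.3% and 80.3% in sh-CEBPG#3 cells, where both transcripts were low. The values of RPTOR and RHEB rest on 1 transcript each.

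In the other 5 members the transcripts differed more between libraries of a group than their sums did. The median gap between the libraries of a group was 0.51 on the log2(FPKM + 1) scale over 14 transcripts of RICTOR, MLST8, AKT1S1, RPS6KB1 and TSC1, against 0.097 for the sums of these genes. Over all 4168 genes with several such transcripts, the gaps were 0.29 and 0.097. NM_003161 of RPS6KB1, for example, was 55.4% and 80.0% of the gene in sh-NC cells and 57.8% and 92.5% in sh-CEBPG#3 cells. NM_000368 of TSC1 ranged from 26.9% to 70.8% of its gene. NM_022372 of MLST8 had 4.21 and 10.97 FPKM in sh-NC cells while the sums there were 32.4 and 36.1 FPKM. None of these transcripts passed the test, and shifts between them could not be told apart from the spread within a group.

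Other genes of the pathway were grouped in 6 lists with 91 genes, of which 82 were tested. Of these, 18 were higher and 20 were lower at an adjusted p under 0.05 in limma, which is 46.3% against 42.2% of all genes. No list was tested as a whole, so the lists are described by their counts and medians only. The share called was 53.8% for Rag-Ragulator, 50% for GATOR, KICSTOR and amino acid sensors, and 63.2% for substrates and readouts. It was 35.3% for the PI3K-AKT input, 40% for AMPK and stress input, and 14.3% for the cofactors. These shares are to be read beside the 42.2% of all genes, with 18.5% higher and 23.8% lower.

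The Rag-Ragulator list holds the Rag GTPases, which carry mTORC1 to the lysosome in response to amino acids, and the Ragulator complex that anchors them. It also holds SLC38A9, FLCN, FNIP1 and FNIP2. Calls in this list, FLCN and FNIP1 among them, were in one direction. Of 13 genes tested, 7 were higher and 0 lower, and 6 did not pass, with a median log2 fold change of 0.24 against -0.038 over all genes. RRAGB rose from 3.73 ± 0.216 to 6.73 ± 0.918 FPKM (SD, n = 2 each) (log2 fold change 0.70, adjusted p = 0.000647 in limma). FNIP1, a partner of the folliculin GAP for RagC and RagD, rose from 4.87 ± 0.150 to 7.61 ± 0.238 FPKM, and LAMTOR4, a Ragulator subunit, from 53.7 ± 1.57 to 76.8 ± 3.18 FPKM (adjusted p = 0.000919 and 0.000379 in limma). RRAGD, with 2.69 FPKM in sh-NC and 2.70 FPKM in sh-CEBPG#3 cells, did not pass. With the most abundant transcript in place of the sum, RRAGB no longer passed (adjusted p = 0.0530 in limma).

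The list of GATOR, KICSTOR and amino acid sensors, which tell the Rag GTPases of amino acid supply, was split. Of 16 genes tested, 3 were higher and 5 lower, with a median of -0.086. BMT2 (SAMTOR, a sensor of S-adenosylmethionine) rose to 216% of the control level (log2 fold change 0.81, adjusted p = 0.000708 in limma), and SESN1, a sestrin that restrains GATOR2, rose to 157% (0.62, adjusted p = 0.000242). KICS2, listed under its older symbol C12orf66, fell to 57.8% (-0.52, adjusted p = 0.00579 in limma), NPRL3 of the inhibitory GATOR1 complex to 74.7% (-0.38, adjusted p = 0.00514) and KPTN, with KICS2 part of KICSTOR, to 73.1% (-0.35, adjusted p = 0.0319). MIOS of the activating GATOR2 complex rose to 125% (0.28, adjusted p = 0.0318 in limma), while WDR24 and SEH1L of the same complex, named after their values were seen, fell (-0.31 and -0.28, adjusted p = 0.0306 and 0.0143). MIOS did not pass with any 1 library left out (adjusted p from 0.0507 to 0.138), and KPTN did not pass without sh-NC replicate 2 (adjusted p = 0.145) or sh-CEBPG#3 replicate 2 (adjusted p = 0.159, limma). With the most abundant transcript in place of the sum, NPRL3, KICS2, KPTN and MIOS did not pass (adjusted p = 0.174, 0.0884, 0.0522 and 0.0954 in limma), at log2 fold changes of -1.11, -0.57, -0.43 and 0.28.

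Of 17 genes of the PI3K-AKT input tested, 2 were higher and 4 lower. PHLPP1, a phosphatase of AKT, rose to 129% of the control level (log2 fold change 0.29, adjusted p = 0.0327 in limma). PIK3R2, a regulatory subunit of PI3K, fell from 16.0 ± 2.17 to 9.55 ± 1.22 FPKM (-0.69, adjusted p = 0.000917 in limma). PIK3CG, the gamma catalytic subunit, fell to 73.8% of the control level (-0.35, adjusted p = 0.0273 in limma). Over the list the median was -0.0043. PHLPP1 did not pass with any 1 library left out (adjusted p from 0.0686 to 0.132), nor PIK3CG without sh-NC replicate 2 (adjusted p = 0.199) or sh-CEBPG#3 replicate 2 (adjusted p = 0.0913, limma). With the most abundant transcript both also missed the threshold (adjusted p = 0.0991 and 0.399 in limma).

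AMPK, the kinase that senses low energy and phosphorylates TSC2 and RPTOR, was represented with its regulators by 10 tested genes, of which 3 were higher and 1 lower, with a median of 0.092. The regulatory subunits PRKAG2 and PRKAB2 rose to 149% and 145% of the control level (adjusted p = 0.00460 and 0.00890 in limma). STK11 (LKB1), which activates AMPK, rose to 119% (adjusted p = 0.0209 in limma), and the catalytic subunit PRKAA1 fell to 82.4% (adjusted p = 0.0264). STK11 did not pass without sh-NC replicate 1 (adjusted p = 0.0597) or sh-CEBPG#3 replicate 1 or 2 (0.106 and 0.119), nor PRKAA1 without sh-NC replicate 1 (0.0588) or sh-CEBPG#3 replicate 1 or 2 (0.0517 and 0.154, limma). With the replicate number as a block, their adjusted p-values were 0.0871 and 0.0710 in limma.

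The cofactors of the complexes changed least in count, with 1 of 7 tested genes passing. TTI1, which assists the assembly of mTOR and related kinases, fell from 9.24 ± 0.650 to 6.80 ± 0.326 FPKM (log2 fold change -0.39, adjusted p = 0.00700 in limma), and with its most abundant transcript alone it did not pass (adjusted p = 0.0877). The median of the list was -0.071. MAPKAP1 (SIN1), the subunit that mTORC2 needs beside RICTOR, stood at 94.7% of the control level and did not pass (log2 fold change -0.071, adjusted p = 0.535 in limma).

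Substrates and readouts of mTOR had 12 of 19 tested genes called, 3 higher and 9 lower, with a median of -0.23. EIF4EBP1, the translation repressor that the study followed up, fell from 216 ± 15.0 to 49.4 ± 0.764 FPKM (SD, n = 2 each), or by -2.10 on the log2 scale. Its paralog EIF4EBP2 fell from 21.0 ± 1.64 to 10.2 ± 0.696 FPKM (-0.97, adjusted p = 2.48e-05 in limma). ATG13, a subunit of the autophagy-initiating ULK complex that mTORC1 restrains, fell from 16.2 ± 0.665 to 8.28 ± 0.393 FPKM (-0.89, adjusted p = 2.99e-05 in limma). SGK1, a kinase activated by mTORC2, rose from 1.33 ± 0.0371 to 5.76 ± 0.178 FPKM (1.53, adjusted p = 3.2e-06 in limma), and TFE3, a transcription factor of lysosomal genes, rose to 160% of the control level (0.59, adjusted p = 0.000548). SGK3 rose to 127% (0.32, adjusted p = 0.0147 in limma) but did not pass without sh-CEBPG#3 replicate 1 (adjusted p = 0.0837).

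Several members share genomic ground with another coding gene in the RefSeq annotation: TSC2 with PKD1, MLST8 with BRICD5, AKT1S1 with TBC1D17, RICTOR with OSMR and MTOR with ANGPTL7. Strand use in the libraries is not given in the sources used here, so reads from such pairs may not be separable where their exons meet. RPTOR, RHEB and DEPTOR overlap no named coding gene.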

How the data were processed

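RNA-seq of MV4-11 cells was analysed from 4 libraries, made from total RNA with the Illumina TruSeq RNA Sample Prep Kit. Reads were filtered and aligned by the authors with HISAT, and FPKM values per RefSeq transcript were deposited. The submitters' processing notes name HISAT2 2.0.5 and hg38. The program behind the FPKM values is not given in the sources used here.

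Of 28780 transcripts, 199 had no value. The rest were summed by symbol to 16490 genes, and the 12142 with a mean of at least 0.5 FPKM were tested on log2(FPKM + 1) with limma 3.58.1 in R 4.3.3 (lmFit, eBayes with a trend, no block), with Benjamini-Hochberg adjustment over all genes. The count-based test named in the study was not run because the values are FPKM, and whole reads could not be recovered from them (0.487% of 1027 low transcripts shared a ratio to 3 decimals). With 2 libraries per group, p-values rest on limma's model of variance across genes. The fit was tested on simulated data, where a far smaller share of genes was changed than was called here, and none as low as DEPTOR. That test checks the working of the fit and not the calls made here.

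Members and lists were chosen with earlier results of these data known. Named genes were the members, CEBPG, EIF4EBP1 and, per list, up to 3 increases and 3 decreases at an adjusted p under 0.05. Genes printed beside these were added after their values were seen. A few genes that the rule picks are counted in their list but not reported singly. Alternatives were pseudocounts, filters, scalings, the variance trend, the replicate block, the main transcript and leaving out each library. Promoters came from RefSeq GRCh38.p14, read with Python 3.11.15.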

Additional observations from a re-analysis of the deposited data

How the results depend on the processing

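RPTOR and RHEB kept their direction under all 13 alternatives fitted over genes. They passed an adjusted p of 0.05 in limma in the 9 that kept all 4 libraries. In the fit over single transcripts RPTOR did not pass (adjusted p = 0.0700 in limma). DEPTOR entered the test only through its level in sh-NC cells. It passed in 8 alternatives with all 4 libraries and was not tested in the one with a minimum mean of 1 FPKM. The log2 fold change of RPTOR ranged from -0.60 to -0.48 (-0.61 to -0.44 with each library left out) and that of RHEB from 0.45 to 0.51 (0.45 to 0.50). The number of members called was 3, and 5 after quantile normalization, with MLST8 and TSC2 added. It was 4 with equal totals, with MLST8 added, and 2 with a minimum mean of 1 FPKM. Those called higher were 1, then 3 after quantile normalization and 2 with equal totals. Those called lower were 2, and 1 with a minimum mean of 1 FPKM, where DEPTOR was not tested. Past the 2-fold threshold of the study were 0 members, and 1 (DEPTOR) with a pseudocount of 0.1 or 0.01. With the most abundant transcript in place of the sum, 2864 genes were called in place of 5128, and 19 pathway genes in place of 38. Member transcripts called were 1, then 2 after quantile normalization and with equal totals, 0 with no filter, with the replicate block and with no trend, and 0 with each library left out. Sign changes were seen only for members that did not pass: MTOR (0.026) ranged from -0.014 to 0.067 and TSC1 (0.047) from -0.012 to 0.11 with a library left out, and AKT1S1 (-0.078) was 0.045 and RPS6KB1 (-0.082) 0.035 with the most abundant transcript. CEBPG stayed between -0.84 and -0.76 (-0.87 to -0.70 with a library left out). The RPTOR to RICTOR ratio was 54.3% to 68.2% of that in sh-NC cells with a library left out. Where a library is left out, the lone one in its group is assumed to vary like the others. A pass or a miss there does not measure the spread of that group. The cause of these shifts was not tested.

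With the replicate block, 4761 genes and 3 members were called. The standard errors there were 0.121 for RPTOR, 0.120 for RHEB and 0.120 for CEBPG. These are close to a common value, so the p-values of the block fit rest mostly on a spread shared by genes. Of the pathway genes picked by the naming rule, MIOS, PHLPP1, STK11 and PRKAA1 did not pass (adjusted p = 0.0576, 0.0504, 0.0871 and 0.0710 in limma). WDR24, SEH1L, TFEB and PRKCA, named after their values were seen, were not followed through the alternatives. The deviations of libraries with one number were correlated at 0.061, so the numbers were not taken as pairs. Depth is unknown, which limits most the low levels of DEPTOR.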

Other observations

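A few transcripts of the members were alike in libraries with the same replicate number rather than in libraries of a group, a pattern noticed after the values were seen. NM_001272060 of RPS6KB1 had 3.11 and 2.79 FPKM in replicate 1 of sh-NC and of sh-CEBPG#3, and 1.25 and 0.446 FPKM in replicate 2. NM_001162427 of TSC1 had 1.40 and 1.21 FPKM in replicate 1 and 0.207 and 0 FPKM in replicate 2. NM_001278160 of AKT1S1 had 0.389 and 0.623 FPKM in replicate 1 and is listed at 0 in both replicates 2. Over all 10800 transcripts of genes with several tested transcripts, the correlation between the replicate differences of the groups was 0.0026. The gene sums of RPS6KB1 and TSC1 were 7.01 and 6.78 FPKM and 3.11 and 3.56 FPKM in replicate 1 of sh-NC and of sh-CEBPG#3.

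The transcription factors of lysosomal genes that mTORC1 holds in the cytoplasm went apart. TFE3 was higher (log2 fold change 0.59), while TFEB was lower (-0.28, adjusted p = 0.0306 in limma). SGK1 stood out among the kinases downstream of mTORC2 with 432% of the control level, while its paralog SGK3 reached 127% and PRKCA fell (-0.35, adjusted p = 0.0303 in limma). TFEB and PRKCA were named after their values were seen.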
